A study of Mus musculus with 96 samples.

Results

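The comparison described here set mice with a working clock in brain and epidermis beside mice with a working clock in brain only, and asked what the epidermis gained from its own clock when the brain clock was already present. Both genotypes carried Arntl alleles silenced by a removable stop cassette (Arntl stopFL/stopFL) together with Syt10-Cre tg/wt, a Cre active in the suprachiasmatic nucleus and other parts of the brain. The RERE genotype also carried K14Cre tg/wt, a Cre active in basal keratinocytes and in other stratified epithelia, whereas the BRE genotype was K14Cre wt/wt. All other tissues of both genotypes kept the silenced alleles, so neither genotype is an intact animal. Back-skin epidermis was taken from C57BL/6 males aged 8 weeks, kept in a 12 h light and 12 h dark cycle with food always present, at ZT0 (lights on), ZT4, ZT8, ZT12 (lights off), ZT16 and ZT20. There were 24 RERE mice and 24 BRE mice, 4 of each at each time, which is 48 of the 96 samples of a series with 4 genotypes. Members were chosen by the genotype in the labels alone, and poly(A) RNA was sequenced.

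In the mammalian clock the product of Arntl, called BMAL1, pairs with CLOCK or its relative NPAS2 and activates genes through E-box sequences. Among those genes are the Per and Cry repressors, which block the pair, and Nr1d1 and Nr1d2, whose products (REV-ERB alpha and beta) repress genes through the elements that the ROR proteins activate. Arntl, Npas2, Cry1 and Nfil3 are known to be held down by REV-ERB. The PAR bZIP factors DBP, TEF and HLF activate, and NFIL3 represses, genes with D-box sequences. In skin, clock genes are known to oscillate in keratinocytes, and DNA replication and division there follow the time of day.

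3 clock-gene promoters are shown because each holds one of these sequences beside a gene whose rhythm differed between the genotypes. They come from RefSeq on GRCm38.p6, and capitals mark the motif. The promoter of Ciart, a repressor of the BMAL1 pair, lies at chr3:95882229-95882478 on the minus strand and holds 3 E-boxes (CACGTG), beginning 116, 58 and 44 bases before the gene start.
Ciart: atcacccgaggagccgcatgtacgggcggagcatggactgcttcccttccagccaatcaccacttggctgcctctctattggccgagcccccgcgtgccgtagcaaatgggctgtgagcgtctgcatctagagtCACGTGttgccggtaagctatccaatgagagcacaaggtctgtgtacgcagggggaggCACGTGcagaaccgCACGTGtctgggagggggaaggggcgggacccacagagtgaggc
The promoter of Per3 lies at chr4:151044666-151044915 on the minus strand and holds 2 D-boxes (TTATGTAA), beginning 205 and 158 bases before the gene start.
Per3: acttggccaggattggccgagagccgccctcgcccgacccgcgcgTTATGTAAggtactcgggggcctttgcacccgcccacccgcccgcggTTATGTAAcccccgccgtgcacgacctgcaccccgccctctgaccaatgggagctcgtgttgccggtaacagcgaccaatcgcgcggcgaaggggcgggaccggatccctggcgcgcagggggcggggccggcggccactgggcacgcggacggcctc
The stretch of 30 bases at chr7:113207531-113207560 on the plus strand, just inside Arntl, holds the core of a ROR element (TAGGTCA) beginning 30 bases after the RefSeq gene start.
Arntl: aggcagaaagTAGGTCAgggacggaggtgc

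Values are given as RPKM, reads scaled to gene length and library size, from the deposited log2 values. The genotypes were normalized in separate tables, and over 11818 genes tested the median RERE mean was 0.04 log2 above the median BRE mean. This constant was taken off every RERE value, so all differences are relative to the typical gene, and a shift shared by all genes cannot be seen. Whether the genotypes were bred, collected or sequenced side by side is not stated in the labels, so genotype and any such batch cannot be told apart. Depth, estimated from the value given to genes without reads, was 11.2 to 32.4 M reads per RERE library (median 16.5) and 12.0 to 19.1 M reads per BRE library (median 15.9). The spread between mice of one time was alike, with a median SD over genes of 0.157 log2 in RERE and 0.162 log2 in BRE. The defining genes of epidermis were abundant: Krt5 had a median of 6162 RPKM in RERE and 6243 RPKM in BRE, and Krt14, the partner of Krt5 in basal cells, 2689 RPKM in RERE and 3024 RPKM in BRE. All 8 endothelial and all 7 adipocyte markers averaged under 1 RPKM.

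Arntl, the reconstituted gene (chr7:113207465-113314126, plus strand, on mm10), was cyclic in RERE and nearly constant in BRE at the same day-long level. At ZT0 the 4 RERE mice had 25.8, 22.1, 20.8 and 23.2 RPKM, against 13.2, 14.4, 14.6 and 12.6 RPKM in the 4 BRE mice. At ZT12 the RERE mice had 6.73, 5.60, 4.64 and 5.40 RPKM and the BRE mice 11.7, 11.6, 13.2 and 11.4 RPKM. RERE was thus above every BRE mouse at ZT0 and below every BRE mouse at ZT12. Over the day the levels differed by 0.01 ± 0.04 log2 (SE, 24 mice each, limma adjusted p = 0.916). The fitted rhythm spanned 2.16 ± 0.15 log2 from trough to peak in RERE with a peak at ZT22.5, against 0.18 ± 0.05 log2 in BRE, and the rhythms differed (limma adjusted p = 5.95e-12). Since the files do not say which part of the transcript the reads came from relative to the stop cassette, the day-long level of Arntl does not check the labels, whereas its rhythm separates them.

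Across most of the clock a rhythm in RERE stood beside a BRE level without a called rhythm, high for some genes and low for others. A missing call did not always mean a steady level, since Per2, Bhlhe40 and Nfil3 varied widely between BRE mice (values below). Of the 19 clock genes listed, Bhlhe41 averaged under 1 RPKM and was not tested. A rhythm was called in RERE in 17 of the other 18, all but Nfil3, and in BRE in 1, Npas2. Over all genes tested 16.2% had a rhythm called in RERE and 16.4% in BRE. The rhythm itself differed in 14 of the 18 clock genes, against 4.91% of all genes tested. The 4 without a call were Rora, Per1, Bhlhe40 and Nfil3. The day-long level was higher in RERE in 9 and lower in 6 of the 18, against 11.2% and 16.1% of all genes tested.

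**Figure D1:**
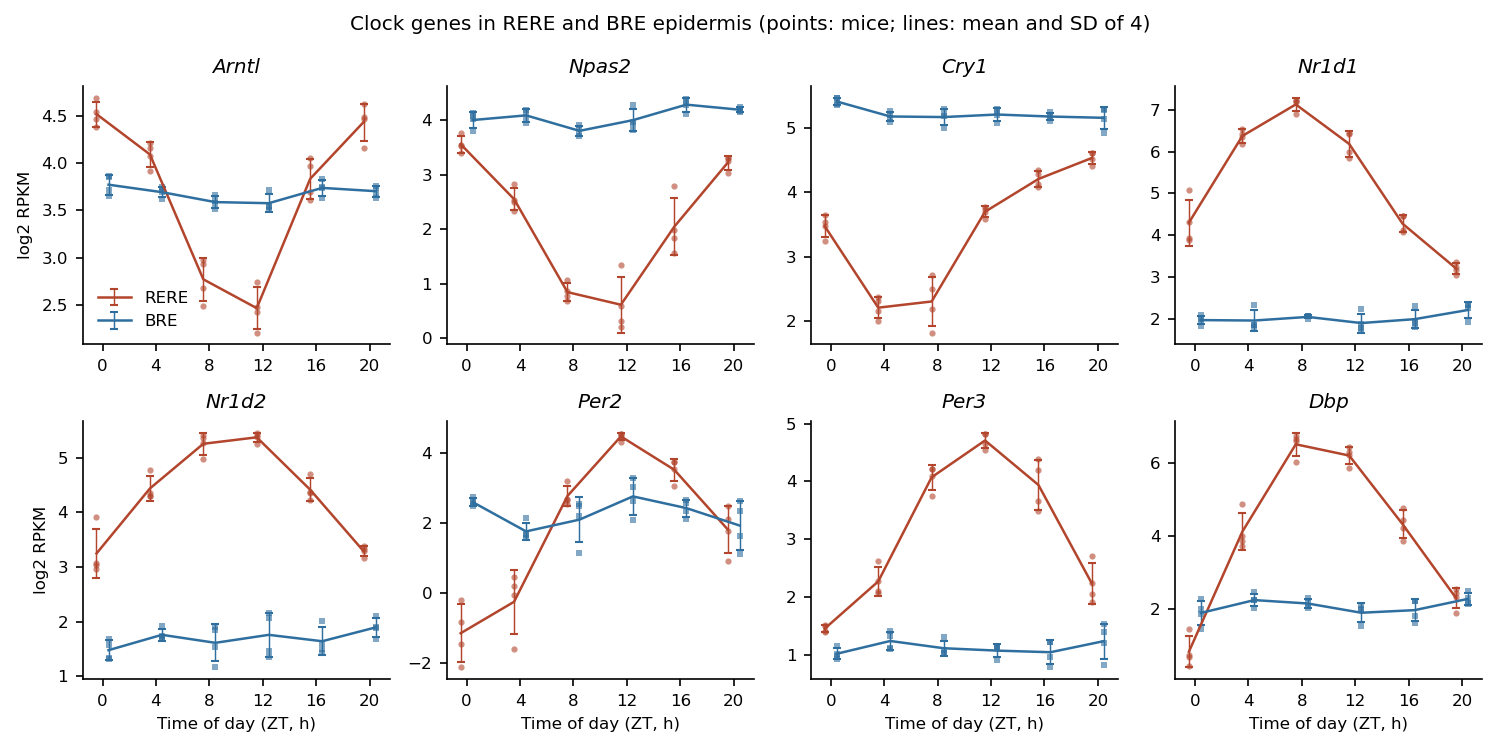
Log2 RPKM of 8 clock genes against time of day (ZT, h) in RERE (circles, left of each time) and BRE (squares, right of each time), with each mouse as a point and lines through the means with SD bars (4 mice each). Arntl crosses the BRE line, Npas2 and Cry1 lie at or below it, Nr1d1, Nr1d2 and Per3 at or above it, and Per2 and Dbp cross it.

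Among the activators, Npas2 (chr1:39193731-39363236, plus strand) was lower in RERE and cyclic. Over the day it had from 1.15 to 13.7 RPKM in RERE (median 5.37) and from 13.2 to 21.1 RPKM in BRE (median 17.1). At ZT12 the RERE mice had 2.52, 1.51, 1.15 and 1.24 RPKM and the BRE mice 15.3, 19.5, 15.7 and 14.2 RPKM. At ZT0 the RERE mice had 11.7, 11.5, 10.5 and 13.7 RPKM and the BRE mice 13.9, 16.2, 17.5 and 16.9 RPKM. RERE was below every BRE mouse at both times, but the call at ZT0 was not made (limma adjusted p = 0.373). Averaged over the day Npas2 was 3.80-fold lower in RERE (log2 difference -1.93 ± 0.07, limma adjusted p = 3.53e-24). Its rhythm spanned 3.12 log2 in RERE with a peak at ZT22.6, and 0.34 log2 in BRE with a peak at ZT18.7. Clock was 1.2-fold lower in RERE (-0.26 ± 0.03 log2, limma adjusted p = 2.13e-07), and its small rhythm of 0.40 log2 peaked at ZT22.8. The rhythm difference of Clock was near the threshold (limma adjusted p = 0.0444) and was lost on removing any of 29 single libraries. Rora was 1.14-fold higher in RERE (0.19 ± 0.06 log2, limma adjusted p = 0.0208).

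Nr1d1 (chr11:98767932-98775333, minus strand) showed the largest level difference of the clock genes. At ZT8 it had 119, 148, 145 and 152 RPKM in RERE and 3.98, 4.18, 4.16 and 4.22 RPKM in BRE. At ZT20, near the RERE trough, it had 10.3, 9.44, 9.05 and 8.24 RPKM in RERE and 5.07, 4.81, 3.78 and 5.01 RPKM in BRE. No RERE mouse at any time was as low as a BRE mouse, and the difference was called at all 6 times. Averaged over the day it was 9.40-fold higher in RERE (3.23 ± 0.07 log2, limma adjusted p = 1.92e-32), with a rhythm of 3.95 log2 peaking at ZT7.88. Nr1d2 likewise did not overlap, with 7.80 to 43.7 RPKM in RERE (median 20.5) and 2.24 to 4.45 RPKM in BRE (median 3.21). It was 6.26-fold higher in RERE (2.65 ± 0.07 log2, limma adjusted p = 7.48e-29) and peaked at ZT10.1.

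Per3 resembled the REV-ERB genes and Per2 did not. At ZT12 Per3 had 23.3, 28.2, 28.3 and 25.1 RPKM in RERE, against 1.87, 2.17, 2.23 and 2.17 RPKM in BRE, a 12.4-fold difference with no overlap. Over the day it was 3.97-fold higher in RERE (1.99 ± 0.07 log2, limma adjusted p = 8.56e-26), with a rhythm of 3.34 log2 peaking at ZT11.9. Per2 crossed BRE: at ZT0 it had 0.882, 0.570, 0.365 and 0.231 RPKM in RERE and 5.67, 6.75, 5.95 and 6.09 RPKM in BRE. At ZT12 it had 23.7, 23.3, 20 and 22.8 RPKM in RERE and 8.28, 6.28, 9.82 and 4.26 RPKM in BRE. The RERE rhythm of Per2 spanned 5.57 ± 0.36 log2 with a peak at ZT13.1, the BRE one 0.48 ± 0.30 log2. Its day-long level was -0.40 ± 0.15 log2 (limma adjusted p = 0.0428), a call lost on removing any of 23 single libraries. It became -0.08 log2 (limma adjusted p = 0.580) on the log2(RPKM + 1) scale, which weighs values near 0 less. Per1 was 1.37-fold higher in RERE (0.45 ± 0.16 log2, limma adjusted p = 0.0327, lost on removing any of 5 libraries, with a highest adjusted p of 0.0558), and its rhythm difference was not called (limma adjusted p = 0.185).

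The cryptochromes and the other repressors parted ways. Cry1 (chr10:85131700-85185064, minus strand), unlike Per3 and Nr1d1, was low in RERE: at ZT4 it had 5.16, 3.99, 4.47 and 4.96 RPKM in RERE, against 36.7, 34.2, 35.7 and 38.3 RPKM in BRE. The highest RERE value of the day, 24.5 RPKM, lay under the lowest BRE value, 30.3 RPKM. The day-long difference was 3.51-fold (-1.81 ± 0.04 log2, limma adjusted p = 5.39e-30), with a RERE rhythm of 2.44 log2 peaking at ZT17.9. Cry2 gained a rhythm of 1.23 log2 peaking at ZT11.5, and its level differed by -0.09 ± 0.05 log2 (limma adjusted p = 0.169). Ciart was 2.2-fold higher in RERE (1.14 ± 0.12 log2, limma adjusted p = 2.61e-09), with 0.370 to 9.12 RPKM in RERE (median 1.64) and 0.540 to 1.73 RPKM in BRE (median 0.901), and a rhythm of 3.83 log2 peaking at ZT10.9. Bhlhe40, a further repressor of E-box genes, had 18.5 to 138 RPKM in RERE (median 58.2) and 17.9 to 93.6 RPKM in BRE (median 46.2). Neither its level (0.37 ± 0.19 log2, limma adjusted p = 0.155) nor its rhythm difference was called.

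Dbp, Tef and Hlf were higher in RERE and NFIL3's gene lower. At ZT8 Dbp (chr7:45705088-45710203, plus strand) had 65.9, 97.6, 107 and 102 RPKM in RERE and 4.09, 4.55, 4.21 and 4.97 RPKM in BRE. At ZT0 the order was turned round, with 2.73, 1.62, 1.36 and 1.68 RPKM in RERE and 3.99, 3.63, 2.74 and 4.81 RPKM in BRE (limma adjusted p = 0.00858). The rhythm of Dbp in RERE spanned 5.56 ± 0.30 log2 with a peak at ZT10.4, and its day-long level was 3.94-fold higher. Tef was 1.61-fold higher with a peak at ZT11.8, and Hlf 1.37-fold higher with a peak at ZT13.1. Nfil3 was 1.91-fold lower (-0.93 ± 0.20 log2, limma adjusted p = 0.000556), with 3.74 to 33.9 RPKM in RERE (median 8.96) and 7.42 to 38.6 RPKM in BRE (median 19.7), and no rhythm was called in either genotype.

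Set against the fitted range of RERE from trough to peak, the day-long BRE level fell in different places for different genes. Of the 17 clock genes with a RERE rhythm, BRE lay below the RERE trough in 3 (Per3, Nr1d1 and Nr1d2), above the RERE peak in 4 (among them Clock, Npas2 and Cry1) and inside the range in 10. Arntl in BRE stood at 0.497 of the way from the RERE trough to the RERE peak, Per2 at 0.571 and Dbp at 0.144.

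E-boxes were present in the promoters of 4 of the 15 clock genes matched to the RefSeq promoter table (Per1, Cry1, Ciart and Tef). Promoters here span 250 bases before to 50 bases after the gene start, and both strands were searched. The D-box letters TTATGTAA or TTACGTAA were present in Per3, and the ROR element core TAGGTCA or TGGGTCA, a motif chosen after values had been seen, in Arntl and Nfil3. Among all 32851 promoters listed there, 7.15% held an E-box, 1.06% a D-box and 6.45% a ROR element core. Genes that gained a rhythm and peaked in RERE from ZT6 to ZT18 held an E-box in 20 of 103 matched promoters (19.4%), and those peaking from ZT18 to ZT6 in 7 of 120 (5.83%). The share over all tested genes with a matched promoter was 12.1%. A match describes the letters only.

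Beyond the clock, level differences were many and small. Of 11818 genes 3232 differed in day-long level (27.3%, or 38.1% at an unadjusted p of 0.05), 1326 of them higher in RERE and 1906 lower, by a median of 1.14-fold among the higher and to a median 0.887 of BRE among the lower. The split of these calls depended on the constant taken off, since 41.0% were higher as reported and 68.1% without it. A difference of at least 1.5-fold was called in 180 genes (1.52%), of which 62 were higher (0.525%) and 118 lower (0.998%). Of these 180, 155 kept the same sign at all 6 times and 134 had no rhythm difference called. Of the 134, 24 had a rhythm called in RERE alone, 20 in BRE alone and 15 in both, so a missing call does not mean a steady offset. At single times, 12 of the 180 were called at all 6 and 15 at none. These counts include clock genes.

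Among the genes higher in RERE, Akr1c18, whose product inactivates progesterone, had the largest difference outside the clock genes and above a mean of 5 RPKM. At ZT8 it had 15.8, 4.20, 11 and 25.8 RPKM in RERE and 0.174, 1.05, 0.168 and 0.307 RPKM in BRE, with no overlap. Over the day it was 8.45-fold higher (3.08 ± 0.26 log2, limma adjusted p = 3.65e-12), a fold that rests on BRE values near the lower limit of measurement. Cdc25b, which encodes a phosphatase that activates CDK1, was steadily higher: at ZT0 it had 24.1, 24.7, 19.8 and 23.9 RPKM in RERE, against 7.05, 7.91, 8.88 and 9.36 RPKM in BRE. It was called at all 6 times and was 2.48-fold higher over the day (1.31 ± 0.08 log2, limma adjusted p = 5.76e-17), without a rhythm in either genotype. Mmp2, a gelatinase gene, did not overlap, with 6.84 to 15.3 RPKM in RERE (median 10.6) and 3.79 to 6.67 RPKM in BRE (median 5.22), and was 2.07-fold higher. Ngfr, the gene of the p75 neurotrophin receptor, had 14.3, 18, 18.9 and 16 RPKM at ZT8 in RERE, against 5.01, 3.87, 4.77 and 4.73 RPKM in BRE. It was 2.17-fold higher over the day, with peaks at ZT8.82 in RERE and ZT20.2 in BRE. Tgm3, which encodes a transglutaminase of hair and cornifying cells, was 2.17-fold higher, Slc6a6, the taurine transporter gene, 1.92-fold, Fkbp5, a glucocorticoid-induced cochaperone gene, 1.87-fold, and Sectm1a 1.75-fold higher. Their limma adjusted p ran from 1.36e-11 for Slc6a6 to 0.00371 for Fkbp5.

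The genes lower in RERE had mostly overlapping ranges. F3, the gene of tissue factor, was 2.36-fold lower, Abhd12b 2.33-fold, Calcb, a neuropeptide gene, 2.24-fold, Serpina3b 2.23-fold, and Epgn, which encodes the EGF receptor ligand epigen, 2.17-fold lower. Dab1, an adaptor gene of reelin signalling, was 1.89-fold lower. Ttk, the gene of a spindle checkpoint kinase, was 1.99-fold lower (-1.0 ± 0.07 log2, limma adjusted p = 1.72e-14), with 3.95 to 11.7 RPKM in RERE (median 6.05) and 8.12 to 19.1 RPKM in BRE (median 12.7).

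By time of day the genotypes were closest after lights on and farthest apart around lights off. At ZT0 51 genes differed (0.432%) and at ZT4 87 (0.736%), against 894 at ZT8 (7.56%), 983 at ZT12 (8.32%), 794 at ZT16 (6.72%) and 335 at ZT20 (2.83%). Calls higher in RERE numbered 30 at ZT0 (0.254%), 34 at ZT4 (0.288%), 306 at ZT8 (2.59%), 500 at ZT12 (4.23%), 448 at ZT16 (3.79%) and 71 at ZT20 (0.601%). Calls lower in RERE numbered 21 at ZT0 (0.178%), 53 at ZT4 (0.448%), 588 at ZT8 (4.98%), 483 at ZT12 (4.09%), 346 at ZT16 (2.93%) and 264 at ZT20 (2.23%). The calls thus leaned lower at ZT8 and ZT20. After rescaling each library by the median ratio to all others the share higher became 49.5% at ZT8, against 34.2% as reported, and 35.5% at ZT20, against 21.2%. Single libraries moved some counts by over 1.5 times. The count at ZT0 was 24 without RERE ZT0 replicate 2, 27 without RERE ZT0 replicate 4, 27 without BRE ZT0 replicate 2 and 32 without BRE ZT0 replicate 3. At ZT4 it was 53 without RERE ZT4 replicate 4, and at ZT8 564 without RERE ZT8 replicate 2. At ZT16 it was 508 without RERE ZT16 replicate 4, 377 without BRE ZT16 replicate 2 and 424 without BRE ZT16 replicate 3. At ZT20 it was 212 without RERE ZT20 replicate 1, 205 without RERE ZT20 replicate 3, 175 without BRE ZT20 replicate 1 and 195 without BRE ZT20 replicate 4. With libraries weighted by their scatter the count at ZT0 was 742, so the low count there depends on equal weights.

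**Figure D2:**
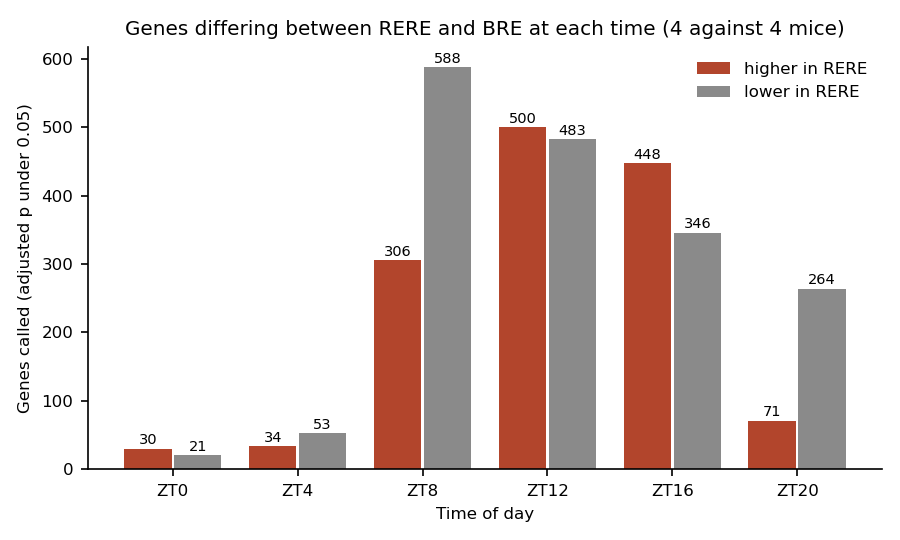
Number of genes called at each time of day (limma, adjusted p under 0.05, 4 RERE against 4 BRE mice), higher in RERE (left bars) and lower in RERE (right bars). Counts run from 51 in all at ZT0 to 983 at ZT12.

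The genes with the largest differences at single times were mostly those already described. Per2 and Nr1d1 led at ZT0, Nr1d1 and Akr1c18 at ZT4, Akr1c18 and Nr1d1 at ZT8, Dbp and Nr1d1 at ZT12, and Per3 and Nr1d2 at ZT16. At ZT20 they were Mir186, a microRNA gene whose mature product poly(A) libraries do not capture, 3.48-fold higher, and 3 genes lower in RERE. These were Fst, the follistatin gene, 3.30-fold lower (limma adjusted p = 0.0103), Postn, the periostin gene, 3.09-fold lower (limma adjusted p = 0.0165), and Slco2b1, an organic anion transporter gene, 2.94-fold lower (limma adjusted p = 0.0246). Postn and Sparc were also the members of the fibroblast list called lower over the day, 2 of 4 tested, against 16.1% of all genes tested. The summed fibroblast list at ZT20 was 26.0 to 40.1 RPKM in RERE and 47.5 to 65.9 RPKM in BRE. Its largest member is Postn, named here for its ZT20 difference, with day-long medians of 19.0 RPKM in RERE and 35.3 RPKM in BRE. Other members did not all go this way: Col1a1 had medians of 1.85 RPKM in RERE and 1.43 RPKM in BRE, and Col1a2 0.718 and 0.572 RPKM. Pdgfra, a defining fibroblast gene, had a median of 0.0614 RPKM in RERE and 0.0655 RPKM in BRE. The part of fibroblasts in these genes was not tested, and in bulk tissue fewer cells of a type and less RNA per cell cannot be told apart.

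With all mice, rhythms were called about as often in both genotypes, and most calls in 1 genotype alone came without a called difference between the rhythms. A rhythm was called in 1910 genes in RERE and 1937 in BRE, with 644 in both (5.45%), which is 33.7% of the RERE and 33.2% of the BRE genes. Of these 644, 453 peaked less than 3 h apart (70.3%), with a median shift of -0.96 h (RERE earlier) and a median amplitude ratio of 1.02. A rhythm difference was called in 580 genes. Of these, 277 had a rhythm called in RERE alone (gained, 2.34%), 120 in BRE alone (lost, 1.02%), and 111 in both with peaks at least 6 h apart (shifted, 0.939%). A further 36 were rhythmic in both, differed and peaked under 6 h apart (0.305%). The remaining 36 fell in none of these classes, nearly all with a rhythm called in neither genotype. Apart from the 580, 497 genes were rhythmic in both without a called difference (4.21%). Of the genes with a rhythm called in RERE alone 988 had no rhythm difference called, and of those called in BRE alone 1171 had none. At an unadjusted p of 0.05 the rhythm differed in 14.1% of all genes tested. The like number of rhythm calls depended on the mice kept. Without the mice of replicate 1 there were 983 in RERE and 1748 in BRE, and without replicate 2 965 and 168. Without replicate 3 there were 1152 in RERE and 322 in BRE, and without replicate 4 975 and 772. The lost count was 221 without BRE ZT0 replicate 1 and 75 without BRE ZT4 replicate 1, and the count of 36 that differed with nearer peaks was 23 without BRE ZT12 replicate 2. In the authors' deposited table of rhythm tests 224 of the gained genes had a q-value under 0.05 in RERE and 1 in BRE. Of the lost genes 0 had one in RERE and 60 in BRE, in the same deposited tables. Of the 111 shifted genes 78 had one in RERE, 35 in BRE and only 25 in both. Those tests were made on the same mice that set the classes, so they are not a separate check.

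Gained genes fell into 2 windows of the day, and the sign of their level followed the window. Outside the clock, S phase and mitosis lists, 101 gained genes peaked from ZT8 to ZT16 in RERE, and of these 70 were higher in day-long level and 0 lower, with a median of 0.18 log2. Of 110 such genes peaking from ZT20 to ZT4, 1 was higher and 66 lower, with a median of -0.19 log2. Over all genes tested 11.2% were higher and 16.1% lower. The lean was not particular to gained genes, since genes rhythmic in both genotypes had it too. Of 110 such genes peaking in RERE from ZT12 to ZT16, 36 were higher and 1 lower. Of 287 peaking from ZT0 to ZT4, 19 were higher and 93 lower. Level and rhythm are separate terms of the fit, and the cause of this lean was not tested.

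At single times the same genes showed where the difference arose, as a description, since these values also chose the class. The genes peaking from ZT8 to ZT16 had a median difference of -0.04 log2 at ZT0, 0.02 at ZT4, 0.30 at ZT8, 0.46 at ZT12, 0.37 at ZT16 and 0.04 at ZT20. The genes peaking from ZT20 to ZT4 had 0.14 log2 at ZT0, -0.25 at ZT4, -0.70 at ZT8, -0.53 at ZT12, -0.23 at ZT16 and -0.06 at ZT20. The first set was thus nearest to BRE from ZT20 to ZT4 and farthest from it at ZT12, and the second was nearest at ZT20 and farthest at ZT8. The BRE level stood at a median 0.0965 of the way from the RERE trough to the RERE peak in the first set and at 0.866 in the second. BRE lay below the RERE trough in 35 of the 101 and above the RERE peak in 44 of the 110.

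**Figure D3:**
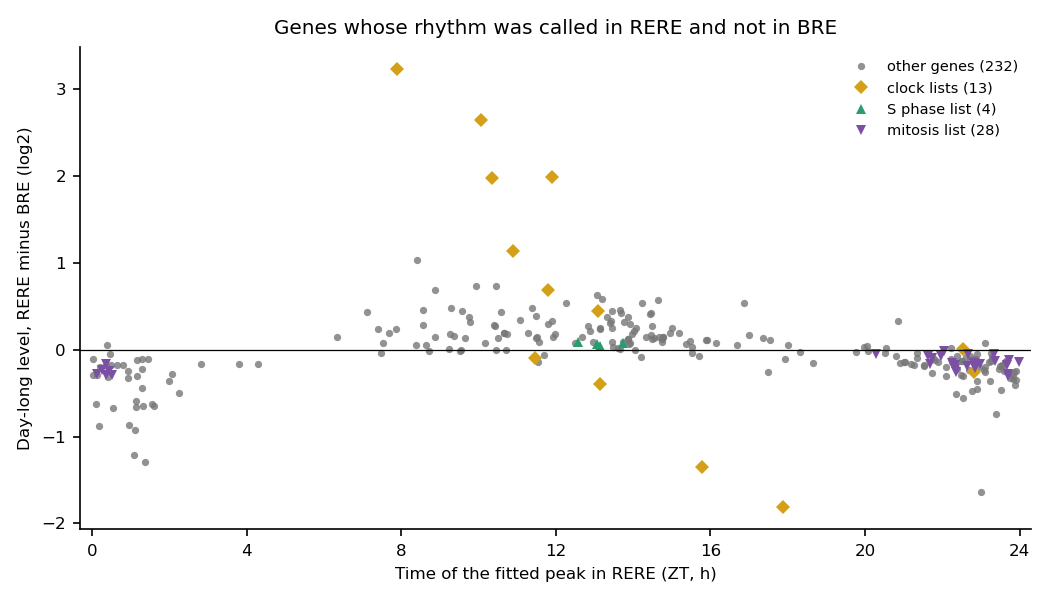
Day-long level difference (RERE minus BRE, log2) of the 277 gained genes against the time of their fitted RERE peak (ZT, h), with members of the clock, S phase and mitosis lists marked. Points peaking from ZT8 to ZT16 lie mostly above 0 and those peaking from ZT20 to ZT4 mostly below it.

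Ttc9, which encodes a tetratricopeptide repeat protein, had the smallest adjusted p for a rhythm difference outside the clock lists. At ZT12 it had 0.746, 0.821, 0.737 and 0.596 RPKM in RERE and 4.89, 5.16, 5.34 and 3.94 RPKM in BRE, and at ZT0 2.92, 3.18, 3.85 and 3.45 RPKM in RERE and 6.04, 4.67, 4.41 and 4.95 RPKM in BRE. It did not overlap over the day, peaked at ZT23.0 in RERE with a rhythm of 2.18 log2, and was 3.10-fold lower (limma adjusted p for the rhythm difference = 7.12e-15). Cxcl14, a chemokine gene, had 366, 250, 312 and 352 RPKM at ZT0 in RERE and 268, 380, 370 and 340 RPKM in BRE, which overlap. At ZT12 it had 117, 68.1, 105 and 95.3 RPKM in RERE and 341, 317, 319 and 310 RPKM in BRE, 3.41-fold lower. Its RERE rhythm of 1.72 log2 peaked at ZT23.4, while BRE stayed between 243 and 380 RPKM all day. Fam234b (peak ZT22.5, 1.47-fold lower) and Acsl5, which encodes a fatty acyl-CoA synthetase (peak ZT22.3, 1.13-fold lower), went the same way. Sod2, the mitochondrial superoxide dismutase gene (peak ZT14.5, 1.13-fold higher), Pdxk, the pyridoxal kinase gene (peak ZT14.5, 1.34-fold higher), and Tmem57 (peak ZT12.7, 1.10-fold higher) belonged to the other window. Arsi, an arylsulfatase gene rhythmic in both, did not overlap, with 1.74 to 8.42 RPKM in RERE (median 4.48) and 0.457 to 1.32 RPKM in BRE (median 0.954). It was 5.07-fold higher and peaked at ZT9.04 in RERE against ZT19.2 in BRE. Hs3st6, a heparan sulfate sulfotransferase gene, was 1.54-fold lower and peaked at ZT23.7 in RERE and ZT6.42 in BRE.

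With all mice, most DNA replication genes were rhythmic in both genotypes and about opposite in time. Of 34 S phase genes tested, 26 had a rhythm called in RERE, 28 in BRE and 22 in both, against 16.2%, 16.4% and 5.45% of all genes tested. All 22 peaked at least 6 h apart. These 22 belong to the shifted class, which fell from 111 genes to 4 without the mice of replicate 2 and 4 without replicate 3. It held 20 without replicate 4 and 111 without replicate 1. Most of the 22 thus left the class without replicate 2 or without replicate 3. In the authors' deposited rhythm tests 25 of the 111 shifted genes had a q-value under 0.05 in both genotypes. The rhythm difference was called in 32 of the 34 S phase genes, against 4.91% of all genes tested, the exceptions being Tyms and Gins3. The mean peak was ZT12.9 in RERE and ZT1.18 in BRE. Mcm3, a subunit of the replicative helicase, had 13.8, 14.8, 15.6 and 21.7 RPKM at ZT12 in RERE and 9.36, 3.74, 7.26 and 10.1 RPKM in BRE. At ZT0 it had 7.11, 8.53, 6.73 and 6.65 RPKM in RERE and 7.65, 14.8, 15.2 and 17.7 RPKM in BRE. RERE was above every BRE mouse at ZT12, and at ZT0 the order was reversed with 1 BRE mouse among the RERE values. Over the day Mcm3 differed by 0.03 ± 0.11 log2 (limma adjusted p = 0.861). Of the S phase list 2 genes were higher in day-long level (Prim1 and Tk1) and 1 lower (Rrm2), against 11.2% and 16.1% of all genes tested. Tk1 lost its call on removing any of 10 libraries, with a highest limma adjusted p of 0.0608.

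The peak times of single genes follow as a description, since these genes were chosen for the largest shifts or the smallest rhythm-difference p-values. Lig1, the DNA ligase gene of the replication fork, peaked at ZT13.1 in RERE and ZT1.41 in BRE, and Rnaseh2b, of ribonuclease H2, at ZT14.1 in RERE and ZT2.16 in BRE. Rpa2, of the single-strand binding complex, peaked at ZT12.8 in RERE and ZT0.949 in BRE, and Rfc2, of the clamp loader, at ZT12.8 in RERE and ZT0.580 in BRE. Mcm6 and Mcm7, of the replicative helicase, peaked at ZT11.9 and ZT12.9 in RERE and at ZT0.588 and ZT1.18 in BRE. Fen1, a flap nuclease gene, peaked at ZT13.2 in RERE and ZT1.73 in BRE. Topbp1, of the replication checkpoint, peaked at ZT13.5 in RERE and ZT0.283 in BRE. Mthfd1l, of mitochondrial folate metabolism, peaked at ZT13.2 in RERE and ZT1.07 in BRE. Ttc39a, outside the replication lists, peaked at ZT13.1 in RERE and ZT0.790 in BRE. Of the 644 genes rhythmic in both, 112 peaked at least 6 h apart and 58 at least 10 h apart, of which 19 were in the S phase and mitosis lists.

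**Figure D4:**
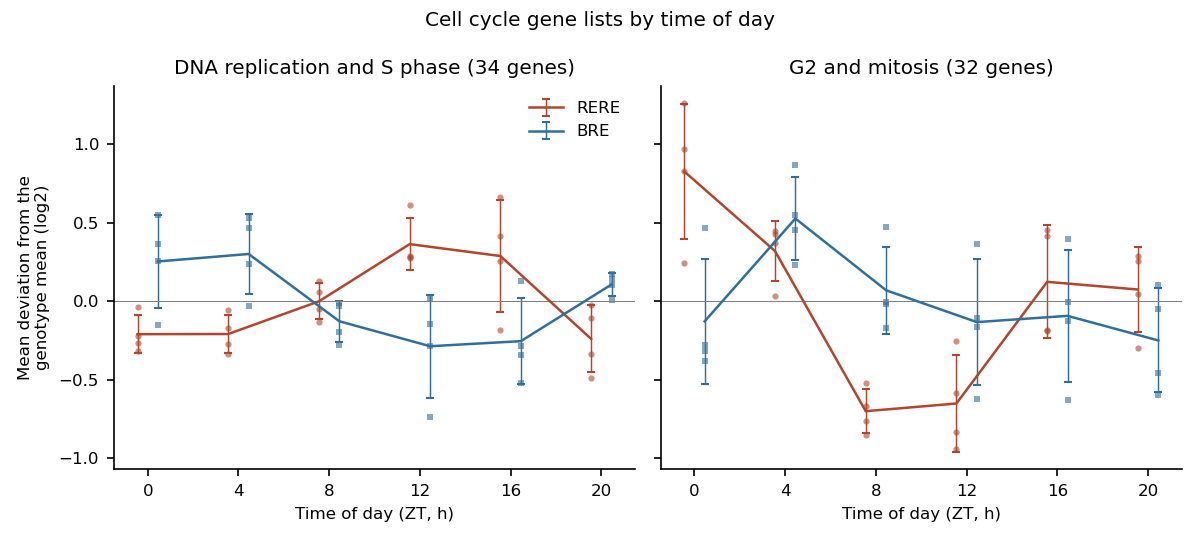
Mean log2 deviation from each gene's mean in its own genotype over the 34 S phase genes (left panel) and the 32 mitosis genes (right panel) against time of day (ZT, h), with each mouse as a point (RERE circles left, BRE squares right) and lines through the means with SD bars (4 mice each). The S phase list is highest at ZT12 in RERE (0.36 ± 0.17) and at ZT4 in BRE (0.30 ± 0.25), and the mitosis list at ZT0 in RERE (0.83 ± 0.43) and at ZT4 in BRE (0.53 ± 0.26).

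Mitosis genes had a called rhythm in RERE in all 32 tested and in BRE in 2, Bub1 and Ttk. Of all genes tested 16.2% had a rhythm called in RERE and 16.4% in BRE. In BRE 16 passed an unadjusted p of 0.05, so a missing call there does not mean that the rhythm was absent. The median rhythm of the list was 1.41 log2 in RERE and 0.59 log2 in BRE. Over all genes tested it was 0.19 log2 in RERE and 0.20 log2 in BRE. The rhythm differed in 30 of 32, the exceptions being Mki67 and Birc5, and 28 were gained, against 4.91% and 2.34% of all genes tested. Their mean RERE peak was ZT22.9, later in the dark phase than that of the S phase list. Nusap1, a spindle protein gene, had 6.64, 16.5, 11.9 and 13.2 RPKM at ZT0 in RERE and 5.22, 5.89, 4.37 and 9.49 RPKM in BRE. At ZT12 it had 4.19, 2.15, 2.92 and 3.17 RPKM in RERE and 5.41, 3.46, 5.21 and 7.70 RPKM in BRE. The groups overlapped at both times and neither difference was called (limma adjusted p = 0.134 at ZT0 and 0.0603 at ZT12), whereas the rhythm over 6 times differed (limma adjusted p = 0.000211). Ccnb1 and Ccnb2, the B-type cyclins of mitotic entry, peaked at ZT0.512 and ZT0.117 in RERE with rhythms of 1.79 and 1.91 log2. Cdc20, Cdca3, Cenpa and Kif22 were the others among the largest gained rhythms, of 1.54 to 1.91 log2 in RERE and 0.50 to 0.79 log2 in BRE. In day-long level 0 of the 32 were higher and 2 lower (Ttk and Kif2c, whose call was lost on removing any of 8 libraries) with the limma test, and 10 passed an unadjusted p of 0.05. The median was -0.17 log2, and 11.2% of all genes tested were higher and 16.1% lower.

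Of the D-type cyclins, which drive cells out of G1, Ccnd1 and Ccnd2 differed in level and in time, and Ccnd3 was not called in either (limma adjusted p = 0.948 for level and 0.218 for rhythm). At ZT8 Ccnd2 (chr6:127125162-127152193, minus strand) had 140, 123, 145 and 140 RPKM in RERE and 50.6, 49.0, 60.8 and 45.8 RPKM in BRE. At ZT20 it had 51.6, 55.1, 44.1 and 41.6 RPKM in RERE and 71.8, 57.1, 61.0 and 53.4 RPKM in BRE, with overlap. Its rhythm of 1.62 log2 in RERE peaked at ZT9.67, against 0.37 log2 and ZT22.2 in BRE, and its day-long level was 1.41-fold higher (limma adjusted p = 8.60e-10). Ccnd1 peaked at ZT11.7 in RERE and ZT19.6 in BRE and was 1.26-fold higher. Of 10 genes in the list of D cyclins, their kinases and CDK inhibitors, 3 were higher (with Cdkn2d) and 3 lower. The shares of all genes tested were 11.2% and 16.1%. The CDK inhibitors Cdkn1a and Cdkn2b were 1.18-fold and 1.23-fold lower in RERE, and the kinase gene Cdk6 was the third.

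Few genes lost a rhythm, and those with the largest BRE rhythms were F3, Ivl and 6 histone H2A genes. At ZT12 F3 had 3.38, 2.53, 3.95 and 3.32 RPKM in RERE and 20.9, 19.5, 15.4 and 14.9 RPKM in BRE. Ivl, the gene of the cornified envelope protein involucrin, had 15, 14.7, 16.8 and 17.2 RPKM at ZT12 in RERE and 36.7, 36.6, 48.4 and 46.1 RPKM in BRE. Neither overlapped at that time, and their BRE rhythms of 1.59 and 1.12 log2 peaked at ZT12.0 and ZT14.1. Over the day Ivl was 1.70-fold lower in RERE (limma adjusted p = 5.70e-06). Hist1h2ac, Hist1h2ad, Hist1h2ag, Hist1h2ah, Hist1h2an and Hist1h2ao had BRE peaks between ZT5.87 and ZT5.99 and overlapping values. Their rhythm-difference calls were lost on removing 1 library (RERE ZT8 replicate 4) for Hist1h2ac, any of 14 for Hist1h2ad, any of 14 for Hist1h2ah and any of 6 for Hist1h2an. They are near-identical copies whose reads can be shared, so they count as 1 uncertain observation.

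Keratinocyte differentiation genes were more often lower than higher in RERE, while the basal keratin genes Krt5 and Krt14 were not called different. Of 27 differentiation genes tested, 15 were lower and 4 higher, with a median of -0.28 log2, against 16.1% lower, 11.2% higher and a median of 0 over all genes. Flg2, a filaggrin relative, was 1.80-fold lower (-0.85 ± 0.23 log2, limma adjusted p = 0.00557), with 9.21 to 139 RPKM in RERE (median 44.6) and 30.4 to 206 RPKM in BRE (median 73.7). Krt10, the main suprabasal keratin gene, was 1.22-fold lower, while its partner Krt1 differed by 0.00 ± 0.07 log2 (limma adjusted p = 0.986). The 4 higher were Casp14, Tgm3, Krt2 and Tchh, whose call was lost on removing either of 2 libraries. Krt2, a late suprabasal keratin gene, went against the list most, with 2.46 to 22.3 RPKM in RERE (median 7.09) and 0.347 to 1.72 RPKM in BRE (median 0.610). It did not overlap between the genotypes, and the difference was 10.1-fold (3.33 ± 0.22 log2, limma adjusted p = 3.89e-15), without a rhythm in either genotype. Of 14 basal keratinocyte genes 5 were higher and 2 lower. Among them Itga6, an integrin gene of the hemidesmosome, was 1.17-fold higher, Krt15 1.15-fold higher and Col17a1 1.14-fold higher.

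Lipid genes of the barrier and of cholesterol synthesis moved down in small steps. The shares over all genes tested were 16.1% lower, 11.2% higher and 38.1% at an unadjusted p of 0.05. Of 19 barrier lipid enzymes and transporters 10 were lower and 0 higher with the limma test (median -0.15 log2, 15 at an unadjusted p of 0.05). Abca12, the lipid transporter of lamellar granules, was 1.31-fold lower, Elovl4, an elongase gene, 1.28-fold and Sult2b1, the cholesterol sulfotransferase gene, 1.25-fold lower. Of 19 genes of cholesterol synthesis and uptake 14 were lower and 0 higher with the limma test (median -0.27 log2, 16 at an unadjusted p of 0.05). Fdps was 1.40-fold lower and Sqle, the squalene epoxidase gene, 1.38-fold lower. Without the constant taken off, 10 of the 19 were lower. Of 11 fatty acid synthesis genes 2 were higher (Acacb and Elovl5) and 4 lower, of which Scd2 was the most, 1.63-fold. Of 17 hair follicle and sebaceous gland genes 2 were higher (Lgr6, and Ptch1, whose call was lost on removing any of 31 libraries) and 6 lower, among them Krt79, a keratin gene of the sebaceous duct, 1.45-fold, and Sox9, a hair follicle stem cell factor, 1.33-fold.

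**Figure D5:**
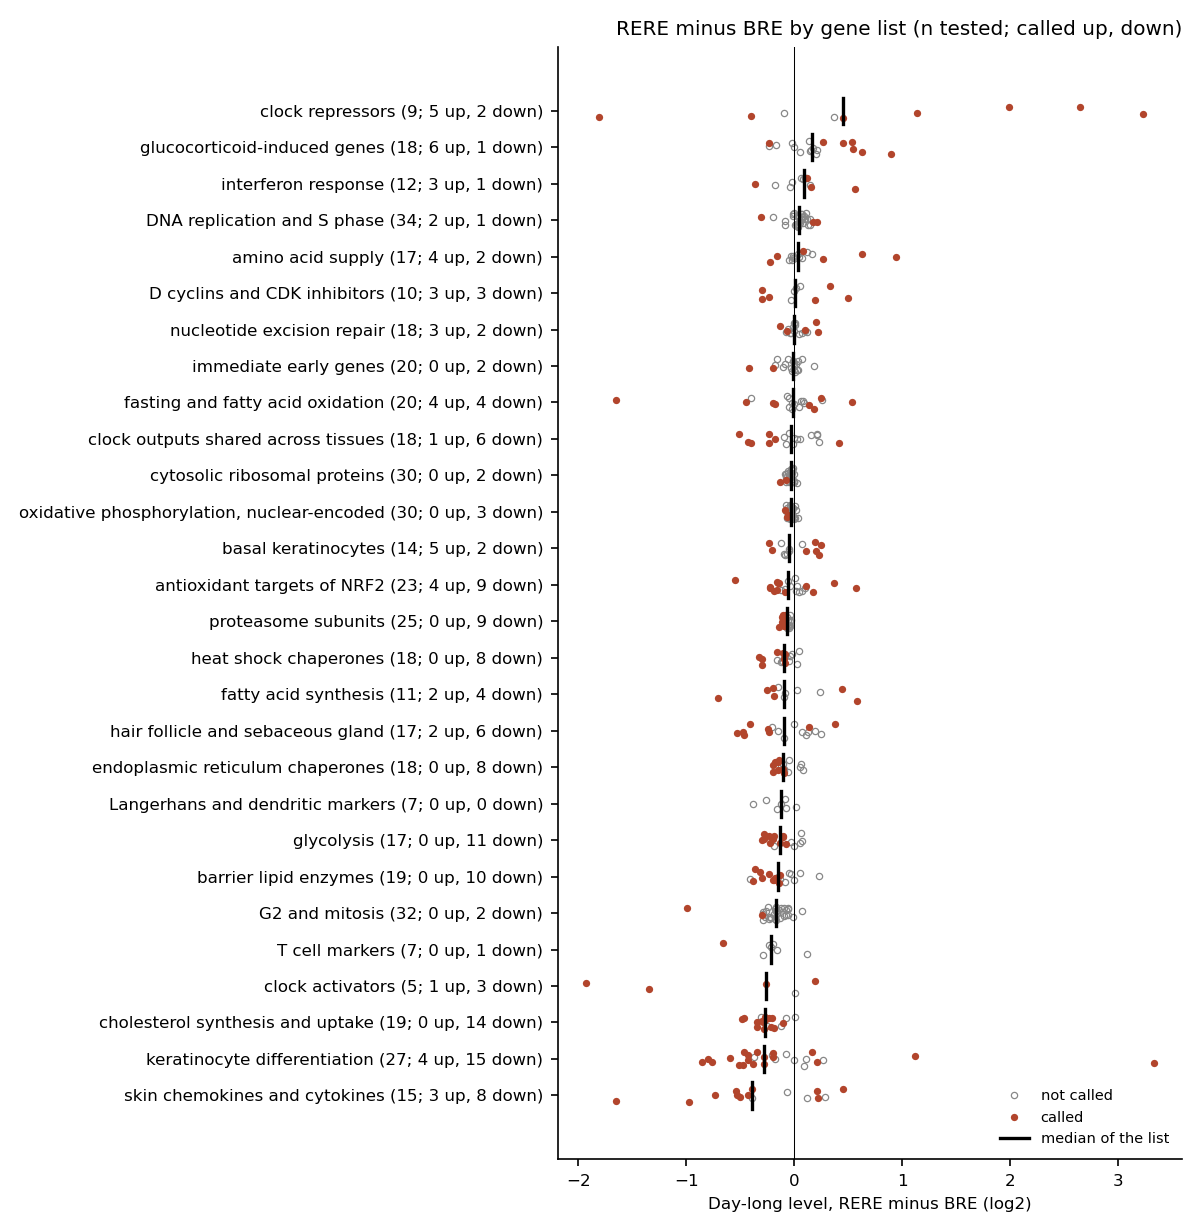
Day-long level difference (RERE minus BRE, log2) of each tested gene in the lists with at least 5 genes tested, with called genes filled, other genes open and list medians as bars. Clock repressors have the highest median (0.45) and skin chemokines and cytokines the lowest (-0.39).

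Metabolic lists differed by small amounts. For scale, 11.2% of all genes tested were higher, 16.1% lower, and 38.1% passed an unadjusted p of 0.05. The oxidative phosphorylation and ribosomal lists fell short of each of these shares. Of 17 glycolysis genes 11 were lower and 0 higher with the limma test (median -0.13 log2, 11 at an unadjusted p of 0.05), among them Ldha, 1.23-fold, Eno1, 1.22-fold, and Pgam1, 1.21-fold. Of 20 genes of fasting and fatty acid oxidation 4 were higher and 4 lower. Acadl, an acyl-CoA dehydrogenase gene that gained a rhythm peaking at ZT1.3 and was 1.36-fold lower, stood against Pdk4, 1.45-fold higher, and Ucp2, a mitochondrial carrier gene that gained a rhythm peaking at ZT10.7 and was 1.14-fold higher. Of 30 nuclear genes of oxidative phosphorylation 3 were lower, of 30 ribosomal protein genes 2 and of 25 proteasome genes 9, with 0 higher in each by the limma test and 6, 5 and 15 at an unadjusted p of 0.05. Their medians were -0.03, -0.03 and -0.07 log2. Without the constant taken off, the oxidative phosphorylation and ribosomal medians become 0.01 log2 and the proteasome median -0.03 log2, with 3 proteasome genes lower. Of 17 amino acid supply genes 4 were higher and 2 lower, with Slc6a6 and Glul, the glutamine synthetase gene (1.54-fold higher), at the top.

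Stress and hormone lists gave a mixed picture. Among all genes tested 11.2% were higher, 16.1% lower, and 38.1% passed an unadjusted p of 0.05. The immediate early counts lay under these shares, and the excision repair counts lay near them. Of 18 glucocorticoid-induced genes 6 were higher and 1 lower, with a median of 0.17 log2. Klf9, a transcription factor gene, was 1.46-fold higher, and Fkbp5, Glul, Pdk4, Per1 and Mt1 were the others, while Cdkn1a was lower. Of this list 7 had a rhythm called in RERE and 4 in BRE, and 0 differed in rhythm by the limma test. The shares of all genes tested were 16.2%, 16.4% and 4.91%. Of 18 heat shock chaperones 8 were lower and 0 higher with the limma test (10 at an unadjusted p of 0.05, 4 lower and 1 higher without the constant taken off), Hspb1 by 1.26-fold and Hspa1a by 1.23-fold. Of 18 endoplasmic reticulum chaperones 8 were lower and 0 higher with the limma test (9 at an unadjusted p of 0.05, 4 lower without the constant taken off), such as Xbp1, 1.15-fold. Cirbp and Rbm3, whose RNA rises with cooling, were not called different, with 0.09 ± 0.07 and -0.01 ± 0.04 log2 in level (limma adjusted p = 0.386 and 0.930). Both were rhythmic in both genotypes, with peaks at ZT5.55 and ZT7.88 in RERE and at ZT4.92 and ZT6.12 in BRE. Of 23 NRF2 target genes 4 were higher and 9 lower, or 6 higher and 5 lower without the constant taken off, with Gsta4, 1.49-fold, Prdx6, 1.3-fold, and Sod2 gaining a rhythm and a higher level, and Nqo1 1.46-fold lower. Of 18 nucleotide excision repair genes 3 were higher, among them the damage sensors Ddb2, 1.17-fold, and Xpc, 1.15-fold, and 2 lower. Of 20 immediate early genes 2 were lower (Egr2 and Klf4) and 0 higher with the limma test, 2 at an unadjusted p of 0.05, and Fos differed by 0.03 ± 0.09 log2.

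Chemokine and cytokine genes had the lowest median of any list with at least 5 genes tested, -0.39 log2. Of 15 tested 8 were lower and 3 higher, against 16.1% and 11.2% of all genes tested. Besides Cxcl14, Ccl20 was 3.14-fold lower (-1.65 ± 0.19 log2, limma adjusted p = 1.18e-08), with 0.134 to 1.66 RPKM in RERE (median 0.45) and 0.304 to 3.09 RPKM in BRE (median 1.35). Il33, an alarmin gene, was 1.44-fold lower, and Ccl27a, a skin-homing chemokine gene, 1.31-fold lower. Cx3cl1, which encodes the membrane chemokine fractalkine, went the other way, gaining a rhythm with a peak at ZT13.7 and a 1.37-fold higher level. Of 12 interferon response genes 3 were higher and 1 lower, with Bst2 1.48-fold higher and Ddx58 1.29-fold lower. Of 18 clock outputs shared across tissues 1 was higher and 6 lower, and 3 gained a rhythm: Leo1 (peak ZT22.4), Lonrf3 and Pdxk. The gained share of all genes tested was 2.34%.

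Among the markers of other skin cells, the calls were Thy1, the fibroblast genes Postn and Sparc given above and a pair of hair shaft genes. Of 7 T cell genes tested 1 was lower, Thy1, by 1.58-fold (-0.66 ± 0.09 log2, limma adjusted p = 7.34e-07), with a gained rhythm peaking at ZT1.15. The summed T cell list at ZT12 was 27.4 to 43.1 RPKM in RERE and 59.2 to 93.6 RPKM in BRE, most of it Thy1, and Cd3e, Cd3g and Ptprc were not called. Of 7 Langerhans and dendritic genes 0 were called by the limma test, with 2 at an unadjusted p of 0.05. Across all genes tested 11.2% were higher and 16.1% lower, and 1 lower of 7 T cell genes is near that share. Of 3 hair shaft genes 2 were higher, Krt25 and Tchh, the latter call lost on removing either of 2 libraries. The summed list at ZT8 was 57.9 to 76.1 RPKM in RERE and 41.3 to 57.1 RPKM in BRE. Most of it was Krt25 (day-long median 52.8 RPKM in RERE and 45.9 RPKM in BRE). At every other time the summed ranges overlapped, with medians of 68.1 RPKM in RERE and 66.9 RPKM in BRE at ZT20. The part of these cells in the chemokine, differentiation and hair follicle genes was not tested.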

How the data were processed

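Poly(A) RNA of 48 mouse epidermis samples, 1 mouse each, was analysed. Per the submitters' processing notes, reads were handled with Trimmomatic 0.36, HISAT2 2.2.1, SAMtools 1.3.1, featureCounts 1.6.0 and edgeR on mm10. The authors deposited log2 values per gene, 1 table per genotype, which behave as log2 RPKM with a prior count of 2 reads (inferred from the values), so folds of low genes are understated. The authors' deposited JTK q-values, from a cycling test per genotype, were used only for the counts credited to them.

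Genes had to average at least 1 RPKM and vary in both tables: 11818 of 22391 were tested, and 301 were left out for not varying alone. The median difference (0.0395 log2) was subtracted from RERE. limma 3.58.1 in R 4.3.3 fitted 12 groups for levels and times, and a 24 h cosine and sine per genotype for rhythms (F tests on 2 degrees of freedom), with Benjamini-Hochberg adjustment over all tested genes at 0.05. Rhythm sizes run from trough to peak. Same-numbered mice did not deviate together (24 correlations from -0.49 to 0.36, 7 over 0.1), so they were not treated as pairs. On simulated data for 11818 genes, 83.0% of level differences of 0.3 log2 and 98.0% of 0.6 log2 were recovered, with 3.72% false calls among those made. Of rhythm differences 62.0% of 0.6 log2 and 86.0% of 1.2 log2 were recovered, with 3.90% false calls. The simulated noise was independent between genes and libraries. Deviations that many genes of a library share were not simulated, so these shares do not cover them.

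Named genes were all clock genes, the 12 largest level differences each way, the 15 smallest rhythm-difference p-values, the 8 largest gained, lost and shifted rhythms and the 4 largest differences per time, all but the first at a mean of at least 5 RPKM where a size was ranked, and up to 4 members per list plus those needed to state a count. Some genes that this rule names are not reported here. Genes, lists and the comparison were chosen with earlier results of these data known. Alternatives covered scaling, filters, the log scale, library weights, a replicate block and leaving out mice. Depths are estimates from the prior count, so no counting intervals are given.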

Additional observations from a re-analysis of the deposited data

Results flagged for a closer look

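Among 66 groups of 4 mice, 5 held a mouse far from the other 3, where chance flags about 1 in 20 groups. Arntl had its far value in BRE at ZT12, where the highest mouse had 13.2 RPKM, and Per3 in BRE at ZT12, where the lowest mouse had 1.87 RPKM. In Akr1c18 the highest BRE mouse at ZT8 had 1.05 RPKM, still below all 4 RERE mice. In Cdc25b the lowest RERE mouse at ZT0 had 19.8 RPKM, still above all 4 BRE mice. The estimated depth of the shallowest BRE library at ZT20 was 12.9 M reads. The difference between RERE and BRE itself differed between the 6 times in 418 genes (limma, F test on 5 degrees of freedom, adjusted over 11818 genes), of which 372 are among the 580 with a rhythm difference.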

How the results depend on the processing

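Without the constant taken off, 2510 genes were higher and 1178 lower in day-long level, and the share of calls higher in RERE was 75% at ZT0, 52.6% at ZT4, 49.9% at ZT8, 69.0% at ZT12, 74.5% at ZT16 and 38.7% at ZT20. That share was 51.1% over the day with no filter on low values and 50.6% with libraries weighted. With no filter, 159 genes were at least 1.5-fold higher and 194 lower, and 22 were rhythmic in both, differed and peaked under 6 h apart. At a mean of at least 5 RPKM there were 358 rhythm differences, 22 calls at ZT0, 529 at ZT16 and 223 at ZT20, 28 and 53 genes at least 1.5-fold higher and lower, 172 gained and 63 shifted. On the log2(RPKM + 1) scale 38 genes were at least 1.5-fold higher and 59 lower. Asking for 1.5-fold as well left 180 level calls. Weighting libraries gave 2175 genes higher, 1047 rhythm differences, 3138 rhythms in RERE and 3242 in BRE, with 742 calls at ZT0, 433 at ZT4, 1705 at ZT12 and 1258 at ZT16. It gave 296 lost, 242 shifted, 91 rhythmic in both that differed with nearer peaks, and 964 rhythmic in both without a difference. With time as 6 levels 67 genes were lost and 20 rhythmic in both that differed with nearer peaks. The cause of these shifts was not tested.

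Leaving out 1 library, or all mice of 1 replicate number, gave 2102 to 3539 level calls, 909 to 1566 higher and 1175 to 2002 lower. It gave 201 to 719 rhythm differences, 965 to 2154 rhythms in RERE and 168 to 2699 in BRE. Calls ran from 17 to 242 at ZT0, 31 to 104 at ZT4, 382 to 1077 at ZT8, 449 to 1343 at ZT12, 215 to 1004 at ZT16 and 66 to 447 at ZT20. There were 57 to 82 genes at least 1.5-fold higher and 96 to 128 lower, 148 to 310 gained, 12 to 230 lost, 4 to 151 shifted, 2 to 54 rhythmic in both that differed with nearer peaks and 44 to 578 without a difference. The median shift ran from -1.36 to -0.37 h and the amplitude ratio from 0.904 to 1.05.

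With the replicate number as a block there were 3188 level calls, 1294 higher and 1894 lower. Among the genes followed it ended the level calls of Ptch1 and Rps2 and the rhythm call of Clock. Of 160 genes followed, 8 of 119 level calls and 7 of 80 rhythm calls were lost without some single library. No called difference of a single gene followed changed sign under these alternatives, whereas the split of calls and some list medians did, as given above.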
